A study of Arabidopsis thaliana with 24 samples.

Results

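The difference between evening and morning transcript levels of Arabidopsis thaliana seedlings was compared between growth outdoors and growth in the lab. The comparison used 18 of the 24 libraries of the study, made from whole seedlings of 14 days on soil, taken at zeitgeber time 4 (ZT4, morning) or 16 (ZT16, evening). Lab LD names the usual indoor long-day setting, and natural LD an open outdoor cage in June 2013 or July 2014, under garden fabric that dimmed the sun and left the red to far-red light ratio as it was. These 3 settings at 2 times gave 6 groups of 3 libraries, chosen by their titles. The other 6 libraries came from LD+FR+TEMP, an indoor long day with added far-red light and a daily temperature programme, and serve here for 1 comparison. The labels name no genotype and do not say that replicates came from separate plantings, so p-values measure the spread between these libraries, which may be technical. Each outdoor year was sampled in 1 season, so weather, date and year cannot be told apart.

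The measured quantity was an interaction. For each gene, the log2 ratio of ZT16 to ZT4 in lab LD was subtracted from the same ratio in natural LD, taken as the mean of both years. A positive interaction means that the evening-to-morning ratio rose outdoors, and a negative one that it fell. With samples at 2 times of day, a change in this ratio does not tell a shifted peak from a changed amplitude. Because whole seedlings were sampled, fewer cells of a type and less RNA per cell cannot be told apart.

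As background, a plant transcript can change between morning and evening through the circadian clock, through light and temperature themselves, and through the sugars that photosynthesis builds up over the day. The clock of this plant joins morning-expressed repressors such as CCA1 and LHY with evening-expressed genes such as TOC1, LUX and GI. Daylight outdoors also carries ultraviolet-B (UV-B) light, which the receptor UVR8 senses and which acts through the transcription factor HY5. Some class II genes of the trehalose-6-phosphate synthase family and the dark-inducible DIN genes are known to rise when sugar runs short.

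Library totals were 12069812 to 16089156 reads at ZT4 and 14132231 to 14756759 at ZT16 in lab LD. They were smaller outdoors, at 6841485 to 9775572 and 6543615 to 7821026 in 2013, and 7175100 to 8268281 and 9681843 to 10711582 in 2014. Levels below are CPM, counts relative to the library total after TMM scaling, and differences are log2 values from edgeR's quasi-likelihood fit with their standard error (SE) and an adjusted p over all genes tested. The summed level of 10 root markers ran from 268.6 to 450.0 CPM over the 18 libraries. It was lowest at ZT16 of 2013, where all libraries (268.6 to 293.6 CPM) lay below those of the other 5 groups. The summed level of 5 floral organ markers ran from 0.734 to 2.13 CPM in lab LD and from 5.90 to 16.6 CPM outdoors, and none of those 5 genes passed the interaction test. The part of these organs in the results below was not tested.

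Of 18797 genes tested, the evening-to-morning ratio rose outdoors in 2556 (13.6%) and fell in 2604 (13.9%). The change was at least 2-fold in 966 of the genes that rose and 1028 of those that fell. The median over all genes was 0.03 on the log2 scale. In 2013 alone 3272 genes (17.4%) passed, and in 2014 alone 5693 (30.3%). A total of 960 genes (5.11%) rose and 1154 (6.14%) fell in the mean and in each year by itself. Both years were set against the same lab libraries, so this count of 2114 genes is a description and not a replication.

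The 5160 genes that passed were sorted by their own ZT16 to ZT4 tests. A difference between times was called in 4120 genes (21.9%) in lab LD and in 9809 (52.2%) in natural LD, where 6 libraries stood at each time against 3 in the lab. Among the 5160, 3107 (60.2%) differed between times outdoors alone, 629 (12.2%) differed in the same direction and by more outdoors, and 166 by less. Another 540 (10.5%) differed in the lab alone, and 519 (10.1%) differed in both settings with opposite signs. Among the 2114 genes that passed in both years, the reversed genes were 437 (20.7%), of which 279 changed from a morning to an evening high and 158 the other way. These classes use the mean of both outdoor years, so a reversed gene need not reverse in each year. With 2013 alone 296 genes were reversed, and with 2014 alone 593.

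Natural LD differed from lab LD in 7698 genes (41%) at ZT4 and in 7305 (38.9%) at ZT16. Of the 5160 genes with an interaction, 1889 differed between settings at ZT4 alone, 1584 at ZT16 alone, 1486 at both times and 201 at neither. The larger of the 2 differences lay at ZT4 in 2842 genes and at ZT16 in 2318.

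Genes known to respond to darkness and low sugar showed the plainest shift towards the evening. All 9 tested genes of that list rose, and all 9 did so in both years, where 13.6% and 5.11% of all genes did. DIN2 and BCAT2, also in the list, had too few reads to be tested, and with no filter 9 of the 11 rose. The median of the 9 was 3.39, against 0.03 over all genes. In 6 of the 9 genes the sign reversed: levels were higher in the morning in lab LD and higher in the evening in the outdoor mean of both years. The median ZT16 to ZT4 difference was -1.17 in lab LD and 1.96 in natural LD.

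TPS11 encodes a member of the trehalose-6-phosphate synthase family. Its level was 31.3, 27.0 and 25.3 CPM in the ZT4 libraries of lab LD and 2.69, 5.98 and 5.38 CPM in the ZT16 ones. The ZT4 values outdoors were 7.51, 5.49 and 7.55 CPM in 2013 and 2.70, 3.86 and 2.12 CPM in 2014, and the ZT16 values were 17.2, 13.6 and 16.6 CPM and 21.5, 23.8 and 18.5 CPM. In lab LD all ZT4 libraries lay above all ZT16 libraries, and in each outdoor year this order was turned round, with no overlap. The interaction was 4.59 ± 0.26 (adjusted p = 1.03e-12), with 3.75 ± 0.30 in 2013 and 5.44 ± 0.32 in 2014. The other class II members of that family in the list behaved alike in direction, with interactions of 4.26 ± 0.25 (adjusted p = 1.69e-12) for TPS8, 3.39 ± 0.35 (adjusted p = 4.31e-08) for TPS9 and 2.22 ± 0.34 (adjusted p = 1.42e-05) for TPS10.

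SEN1, also known as DIN1, is a gene induced by darkness and during senescence. Its level was 4.07, 2.86 and 9.36 CPM in lab LD at ZT4, against 0.612, 0.419 and 1.33 CPM at ZT16. In natural LD the ZT4 libraries had 6.47, 5.01 and 3.13 CPM in 2013 and 1.35, 1.71 and 1.97 CPM in 2014, and the ZT16 libraries 4.62, 4.80 and 8.17 CPM and 14.7, 46.7 and 27.4 CPM. The groups did not overlap in lab LD or in 2014, while in 2013 the ZT4 and ZT16 libraries overlapped. The interaction was 4.96 ± 0.61 (adjusted p = 6.6e-07), and it was 3.04 ± 0.69 (adjusted p = 0.00276) in 2013 and 6.89 ± 0.70 (adjusted p = 2.26e-08) in 2014. DIN10, a raffinose synthase-like gene of the same response, had means of 16.3 ± 4.07 CPM (ZT4) and 13.9 ± 2.14 CPM (ZT16) in lab LD, 8.21 ± 0.224 and 58.9 ± 9.86 CPM in 2013, and 6.87 ± 2.68 and 188 ± 37.9 CPM in 2014 (SD, n = 3). The rise at ZT16 outdoors stood against similar levels at the 2 times in lab LD, and the interaction was 4.03 ± 0.25 (adjusted p = 4.08e-12).

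KMD4 encodes a kelch-repeat F-box protein that promotes turnover of cytokinin response regulators. Its level was 82.8, 89.1 and 79.4 CPM (ZT4) and 37.0, 36.5 and 38.3 CPM (ZT16) in lab LD. For 2013 the libraries gave 40.7, 33.7 and 37.7 CPM (ZT4) and 73.4, 66.6 and 75.6 CPM (ZT16), and for 2014 they gave 14.0, 22.7 and 20.9 CPM (ZT4) and 94.6, 116 and 96.0 CPM (ZT16). The ZT4 libraries were the high ones in lab LD and the low ones in both outdoor years, and the interaction was 2.84 ± 0.15 (adjusted p = 1.67e-13). AKINBETA1, a subunit of the energy sensor kinase SnRK1, had an interaction of 2.41 ± 0.22 (adjusted p = 4.34e-09). ASN1, the dark-inducible asparagine synthetase known as DIN6, kept its morning high outdoors, and its difference between times was smaller there, with an interaction of 1.47 ± 0.37 (adjusted p = 0.00339). The promoter of KMD4 is shown because it holds the evening element, AAAATATCT, a clock-related motif that is discussed with the clock genes below. Of the 9 promoters of this list, it is the only 1 with that motif (11.1%), against 2.98% of 18720 promoters. The KMD4 promoter covers chr3:22142556-22142855 of TAIR10.1 on the + strand, 5′ to 3′. It is the 300 bases before the gene start in RefSeq, with the motif in capitals.
KMD4: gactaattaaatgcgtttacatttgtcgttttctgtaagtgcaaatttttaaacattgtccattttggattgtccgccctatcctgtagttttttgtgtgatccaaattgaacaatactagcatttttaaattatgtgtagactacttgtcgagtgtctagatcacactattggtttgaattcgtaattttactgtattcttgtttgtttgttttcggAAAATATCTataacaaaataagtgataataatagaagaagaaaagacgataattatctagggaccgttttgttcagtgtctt

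The largest positive interactions among genes that passed in both years, with a group mean of at least 5 CPM, included more genes that reversed in this way. AT3G15450, annotated in RefSeq as an aluminum induced protein with YGL and LRDR motifs, had a level of 106, 63.7 and 95.7 CPM at ZT4 and 16.5, 21.6 and 24.4 CPM at ZT16 in the lab libraries. Seedlings grown outdoors had 21.6, 12.1 and 15.4 CPM at ZT4 and 213, 122 and 304 CPM at ZT16 in 2013, then 11.5, 15.6 and 12.0 CPM at ZT4 and 287, 537 and 635 CPM at ZT16 in 2014. The lab libraries were higher at ZT4 and the outdoor libraries higher at ZT16, without overlap in either case. Its interaction of 6.54 ± 0.36 (adjusted p = 5.44e-13) was the largest of those 960 genes at that level. The related AT4G27450 had an interaction of 4.65 ± 0.26 (adjusted p = 6.7e-13). The kelch-repeat gene AT1G80440 had 5.61 ± 0.31 (adjusted p = 6.97e-13), the kelch F-box gene AT1G23390 had 5.25 ± 0.24 (adjusted p = 4.51e-14), and the CHY-type zinc finger gene AT5G22920 had 4.68 ± 0.28 (adjusted p = 2.34e-12). AT4G36850, annotated as a PQ-loop protein, fell from 23.2 CPM at ZT4 to 0.624 CPM at ZT16 in lab LD, and natural LD showed no call between times, so the interaction was 5.21 ± 0.47 (adjusted p = 3.9e-09). AT1G15010, annotated as a mediator subunit, had an interaction of 5.60 ± 0.81 (adjusted p = 7.03e-06), but its lab ZT4 libraries read 31.4, 4.09 and 8.51 CPM. Without the first of them the interaction was 4.36, and without the second ZT4 library of 2014 it was 6.23.

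**Figure D1:**
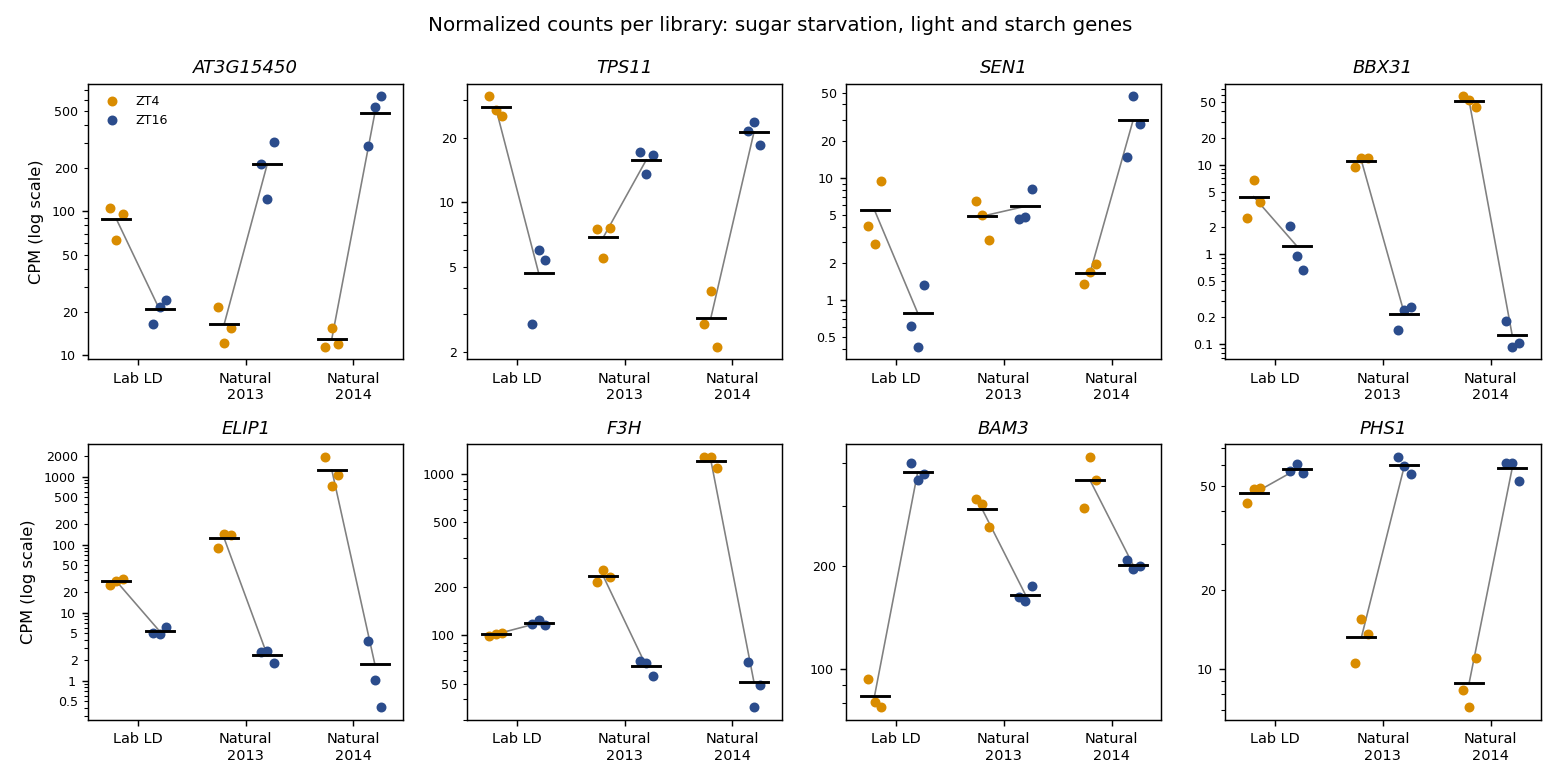
Each panel shows the CPM (log axis) of 1 gene in every library of lab LD, natural 2013 and natural 2014, with ZT4 in orange and ZT16 in blue, a black bar for each group mean and a grey line joining the 2 means. In AT3G15450, TPS11 and SEN1 the ZT16 mean is below ZT4 in lab LD and above it outdoors. BBX31, ELIP1 and F3H show ZT4 levels that are higher outdoors, and in BAM3 and PHS1 lab LD stands apart from both outdoor years at ZT4.

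Genes of the UV-B and high-light response changed towards the morning. Of 13 tested, 12 fell and 1 rose, against 13.9% and 13.6% of all genes, and 11 fell and 1 rose in both years. The median was -2.84. In 9 genes the difference between times had the same sign in both settings and was larger outdoors. BBX30 is counted among those that fell and has a group with 1 read in all, so no fitted fold is given for it, and with such a group set to 3 reads the median was -2.66.

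ELIP1 encodes an early light-induced chlorophyll-binding protein that protects the photosynthetic membrane under strong light. Its level was 25.8, 29.6 and 31.4 CPM at ZT4 in lab LD and 5.08, 4.78 and 6.23 CPM at ZT16 there. Outdoors the 2013 libraries held 89.0, 145 and 139 CPM at ZT4 and 2.60, 2.76 and 1.81 CPM at ZT16, and the 2014 ones 1947, 725 and 1071 CPM at ZT4 and 3.78, 1.03 and 0.408 CPM at ZT16. The outdoor ZT4 libraries all lay above those of the lab, and the 2014 ones lay above those of 2013. The outdoor ZT16 libraries all lay below those of the lab. The interaction was -5.14 ± 0.44 (adjusted p = 1.27e-09), with -3.26 ± 0.52 in 2013 and -7.01 ± 0.51 in 2014. ELIP2 had an interaction of -4.04 ± 0.43 (adjusted p = 6.48e-08).

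HY5, the bZIP factor that acts downstream of UVR8 and the phytochromes, had a level of 8.44, 11.5 and 9.75 CPM in the ZT4 libraries of lab LD and 13.5, 13.2 and 13.1 CPM in the ZT16 ones. The ZT4 values outdoors were 16.0, 16.5 and 19.1 CPM in 2013 and 95.5, 70.2 and 64.7 CPM in 2014, and the ZT16 values were 9.39, 6.72 and 7.91 CPM and 5.75, 6.07 and 5.71 CPM. In lab LD its ZT16 libraries were the higher ones, and in both outdoor years the ZT4 libraries were, with no overlap. The interaction was -2.84 ± 0.18 (adjusted p = 3.7e-12). Its close relative HYH had -3.51 ± 0.19 (adjusted p = 5.44e-13), and RUP2, which returns UVR8 to its inactive form, had -2.21 ± 0.19 (adjusted p = 1.49e-09). BBX31, a B-box gene with a known role in UV-B responses, read 2.53, 6.79 and 3.82 CPM in lab LD at ZT4, against 2.08, 0.957 and 0.665 CPM at ZT16. In natural LD the ZT4 libraries had 9.48, 11.8 and 12.0 CPM in 2013 and 57.9, 52.0 and 44.4 CPM in 2014, and the ZT16 libraries 0.144, 0.240 and 0.259 CPM and 0.180, 0.0934 and 0.102 CPM. The ZT16 values outdoors are few reads per library, and the interaction was -5.28 ± 0.58 (adjusted p = 1.16e-07). BBX32, which lies outside the list, was among the 8 largest negative interactions at -5.50 ± 0.29 (adjusted p = 2.65e-13). The receptor gene UVR8 was the 1 member that rose, at 0.80 ± 0.13 (adjusted p = 4.53e-05). Its mean at ZT4 was 141 CPM in lab LD and 83.2 and 84.3 CPM outdoors.

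The promoter of ELIP1, chr3:8085670-8085969 on the - strand, and that of the flavonoid gene F3H, chr3:19024892-19025191 on the + strand, are shown because each holds a G-box, CACGTG, the motif that HY5 and other bZIP and bHLH factors bind. Coordinates are of TAIR10.1, each sequence is the 300 bases before the RefSeq gene start, 5′ to 3′ on the gene's strand, and capitals mark the G-box.
ELIP1: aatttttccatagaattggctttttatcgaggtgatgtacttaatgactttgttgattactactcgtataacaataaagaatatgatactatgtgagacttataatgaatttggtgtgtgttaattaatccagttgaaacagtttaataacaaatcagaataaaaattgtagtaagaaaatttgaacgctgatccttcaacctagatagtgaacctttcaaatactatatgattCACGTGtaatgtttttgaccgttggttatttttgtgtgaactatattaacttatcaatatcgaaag
F3H: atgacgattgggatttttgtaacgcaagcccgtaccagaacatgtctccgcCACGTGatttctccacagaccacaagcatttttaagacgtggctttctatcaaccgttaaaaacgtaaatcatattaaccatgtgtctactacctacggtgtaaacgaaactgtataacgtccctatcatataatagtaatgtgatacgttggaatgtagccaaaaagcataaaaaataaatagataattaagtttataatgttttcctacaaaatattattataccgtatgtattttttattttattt
A G-box was present in the promoters of 4 of the 13 UV-B genes (30.8%), against 8.12% of 18720 promoters of that length. The match is to letters alone, on both strands, and says nothing of binding.

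Flavonoid and anthocyanin genes parted. Of 17 tested, 11 fell, 2 rose and 4 did not pass, and 7 fell in both years, with a median of -1.99. Over all genes 13.9% fell and 13.6% rose, and 6.14% fell in both years. F3H, flavanone 3-hydroxylase, read 98.6, 102 and 103 CPM (ZT4) and 118, 124 and 116 CPM (ZT16) in lab LD. For 2013 the libraries gave 214, 253 and 230.2 CPM (ZT4) and 69.4, 67.3 and 56.0 CPM (ZT16), and for 2014 they gave 1272, 1265 and 1085 CPM (ZT4) and 68.5, 35.8 and 48.9 CPM (ZT16). In lab LD its ZT16 libraries lay just above the ZT4 ones, a difference of 0.23 ± 0.14 (adjusted p = 0.256), while outdoors the ZT4 libraries were all above the ZT16 ones. The interaction was -3.44 ± 0.18 (adjusted p = 1.67e-13), with -2.09 ± 0.20 in 2013 and -4.80 ± 0.21 in 2014, and the years differed by -2.71 ± 0.20 (adjusted p = 2.25e-09). FLS1, flavonol synthase, reversed from an evening to a morning high, with an interaction of -2.80 ± 0.18 (adjusted p = 4.08e-12). MYB111, a regulator of the flavonol branch, had -2.86 ± 0.27 (adjusted p = 9.4e-09). The 2 genes that rose were DFR, dihydroflavonol reductase, at 1.43 ± 0.42 (adjusted p = 0.0121), and the anthocyanin malonyltransferase gene 5MAT at 1.49 ± 0.56 (adjusted p = 0.0487), and neither passed in 2014 by itself. The 2014 values were 0.77 ± 0.54 (adjusted p = 0.307) for DFR and 1.23 ± 0.82 (adjusted p = 0.28) for 5MAT. None rose with DESeq2, and 1 did with RLE scaling, with the replicate block or with the 18 libraries alone. The number that rose was 4 without the replicate 3 library of ZT4 in 2013, of ZT16 in 2013 or of ZT16 in 2014.

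Among clock genes, several of the morning set kept their morning high and had a larger difference between the times outdoors. Of 13 tested morning genes, 8 fell, 1 rose and 4 did not pass, against 13.9% and 13.6% of all genes. The 8 genes in which the difference had the same sign and was larger outdoors were the same 8 that fell. LHY, CCA1 and RVE8 fell in both years. The count of 8 went down to 5 when replicate 1 of ZT16 in 2013, replicate 3 of ZT16 in 2014 or replicate 3 of ZT16 in lab LD was left out, to 5 with libraries thinned to 1 depth, and to 4 with 2013 alone.

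LHY, a MYB repressor of the evening genes, had a level of 145, 88.7 and 139 CPM at ZT4 and 4.83, 6.22 and 8.22 CPM at ZT16 in the lab libraries. Seedlings grown outdoors had 450.4, 383 and 424 CPM at ZT4 and 1.88, 1.20 and 1.17 CPM at ZT16 in 2013, then 453, 736 and 535 CPM at ZT4 and 2.61, 1.96 and 1.73 CPM at ZT16 in 2014. The outdoor libraries lay above the lab ones at ZT4 and below them at ZT16, with no overlap. The interaction was -3.88 ± 0.30 (adjusted p = 1.72e-10). Its partner CCA1 read 102, 89.9 and 95.4 CPM at ZT4 in lab LD and 1.47, 1.97 and 1.57 CPM at ZT16 there. Outdoors the 2013 libraries held 212, 177 and 187 CPM at ZT4 and 1.01, 1.08 and 0.519 CPM at ZT16, and the 2014 ones 208, 228 and 240.4 CPM at ZT4 and 1.17, 0.747 and 0.917 CPM at ZT16, with no overlap between settings at either time. The interaction was -1.99 ± 0.24 (adjusted p = 4.55e-07). RVE8, a related MYB factor that activates evening genes, read 44.9, 46.9 and 52.4 CPM in the ZT4 libraries of lab LD and 10.3, 9.63 and 10.7 CPM in the ZT16 ones. The ZT4 values outdoors were 65.3, 64.4 and 68.5 CPM in 2013 and 79.7, 92.6 and 92.4 CPM in 2014, and the ZT16 values were 1.45, 1.68 and 1.56 CPM and 2.43, 2.71 and 1.73 CPM. It again lay higher outdoors at ZT4 and lower at ZT16, and the interaction was -3.09 ± 0.19 (adjusted p = 2.15e-12). PRR7, a pseudo-response regulator that represses CCA1 and LHY, was the 1 morning gene that rose, at 1.10 ± 0.19 (adjusted p = 5.2e-05), but it did not pass in 2013 (0.58 ± 0.22, adjusted p = 0.0678).

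Of 12 evening clock genes, 5 rose, 2 fell and 5 did not pass, against 13.6% and 13.9% of all genes. With 2013 alone, 2 rose and 2 fell. BOA rose in both years, and LUX and GI fell in both. LUX, a MYB-like component of the evening complex, read 6.41, 5.15 and 6.63 CPM in lab LD at ZT4, against 31.3, 26.7 and 29.8 CPM at ZT16. In natural LD the ZT4 libraries had 13.8, 13.01 and 12.4 CPM in 2013 and 30.8, 27.4 and 23.5 CPM in 2014, and the ZT16 libraries 13.2, 14.3 and 12.6 CPM and 32.5, 35.0 and 28.9 CPM. In lab LD the ZT16 libraries were all above the ZT4 ones, and outdoors the 2 times overlapped in both years, at a lower level in 2013 than in 2014. The interaction was -2.13 ± 0.15 (adjusted p = 3.29e-11), and ZT16 minus ZT4 in natural LD was 0.14 ± 0.09 (adjusted p = 0.188). GI, a clock protein that with FKF1 allows CO to accumulate, read 4.31, 3.19 and 4.37 CPM (ZT4) and 1.83, 1.79 and 2.18 CPM (ZT16) in lab LD. For 2013 the libraries gave 9.83, 10.2 and 9.06 CPM (ZT4) and 0.867, 2.28 and 2.72 CPM (ZT16), and for 2014 they gave 23.5, 20.4 and 16.7 CPM (ZT4) and 2.97, 2.15 and 1.63 CPM (ZT16). Its ZT4 libraries were higher outdoors than in the lab in both years, and the interaction was -1.67 ± 0.32 (adjusted p = 0.000221). BOA, a close relative of LUX, had 2.27 ± 0.46 (adjusted p = 0.000488), and this rests on low counts: at ZT4 of 2013 there were 4 reads in all, in 1 library. Without that library the group held no reads, so no fitted value is given for that fit.

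TOC1, the evening pseudo-response regulator, had means of 4.41 ± 1.28 CPM (ZT4) and 26.3 ± 2.28 CPM (ZT16) in lab LD, 3.33 ± 0.112 and 26.1 ± 0.400 CPM in 2013, and 2.76 ± 0.851 and 42.6 ± 4.46 CPM in 2014 (SD, n = 3). Its interaction was 0.91 ± 0.20 (adjusted p = 0.0012), with 0.42 ± 0.24 (adjusted p = 0.251) in 2013 and 1.41 ± 0.25 (adjusted p = 8.01e-05) in 2014, so it did not pass in 2013 by itself. ELF4, another member of the evening complex, had 2.19 ± 0.62 (adjusted p = 0.00942), and did not pass in 2014 by itself (adjusted p = 0.0684). PRR5 is given by its reads, because it was near 0 at ZT4: 12 and 48 reads over the libraries of ZT4 and ZT16 in lab LD, 2 and 9 in 2013, and 0 and 15 in 2014. It did not pass, with an adjusted p of 0.249. FKF1, the blue-light receptor, did not pass at 0.30 ± 0.19 (adjusted p = 0.261). Without the third ZT4 library of lab LD, 3 of the evening genes rose in place of 5.

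The promoters of LHY, CCA1 and LUX are shown because the 3 genes changed in both years and carry the motifs by which clock genes are usually grouped. They cover chr1:37872-38171 on the - strand, chr2:19245291-19245590 on the + strand and chr3:17182742-17183041 on the + strand of TAIR10.1, 5′ to 3′, 300 bases before the RefSeq gene start. Capitals mark the G-box (CACGTG) and, in LUX, also the evening element (AAAATATCT).
LHY: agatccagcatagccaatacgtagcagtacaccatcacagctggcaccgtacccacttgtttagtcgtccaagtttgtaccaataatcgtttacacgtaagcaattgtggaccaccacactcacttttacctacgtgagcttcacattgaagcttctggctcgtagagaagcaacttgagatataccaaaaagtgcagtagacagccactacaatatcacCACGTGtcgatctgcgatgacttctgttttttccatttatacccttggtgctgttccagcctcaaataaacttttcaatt
CCA1: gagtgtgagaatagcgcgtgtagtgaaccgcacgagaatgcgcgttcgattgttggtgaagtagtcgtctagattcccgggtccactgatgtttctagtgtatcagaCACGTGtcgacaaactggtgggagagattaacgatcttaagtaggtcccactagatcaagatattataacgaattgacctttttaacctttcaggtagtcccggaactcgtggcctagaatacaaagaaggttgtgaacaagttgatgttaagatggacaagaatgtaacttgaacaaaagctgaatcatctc
LUX: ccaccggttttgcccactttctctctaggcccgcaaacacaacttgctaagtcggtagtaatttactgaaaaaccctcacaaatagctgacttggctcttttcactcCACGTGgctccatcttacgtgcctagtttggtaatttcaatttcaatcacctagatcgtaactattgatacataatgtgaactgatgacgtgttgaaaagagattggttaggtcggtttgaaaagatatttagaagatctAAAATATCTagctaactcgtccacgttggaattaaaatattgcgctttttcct
A G-box stood in 7 of 13 morning clock promoters (53.8%) and an evening element in 5 of 12 evening clock promoters (41.7%), against 8.12% and 2.98% of all 18720 promoters. Among all genes that passed in both years, the evening element stood in 4.27% of promoters of genes that rose and 3.64% of those that fell, and the G-box in 9.79% and 10.1%. The CCA1-binding site, AAAAATCT, a shorter relative of the evening element that neither contains it nor is contained in it, stood in 8.85% and 9.45%, against 8.04% of all. All motifs were read on both strands.

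**Figure D2:**
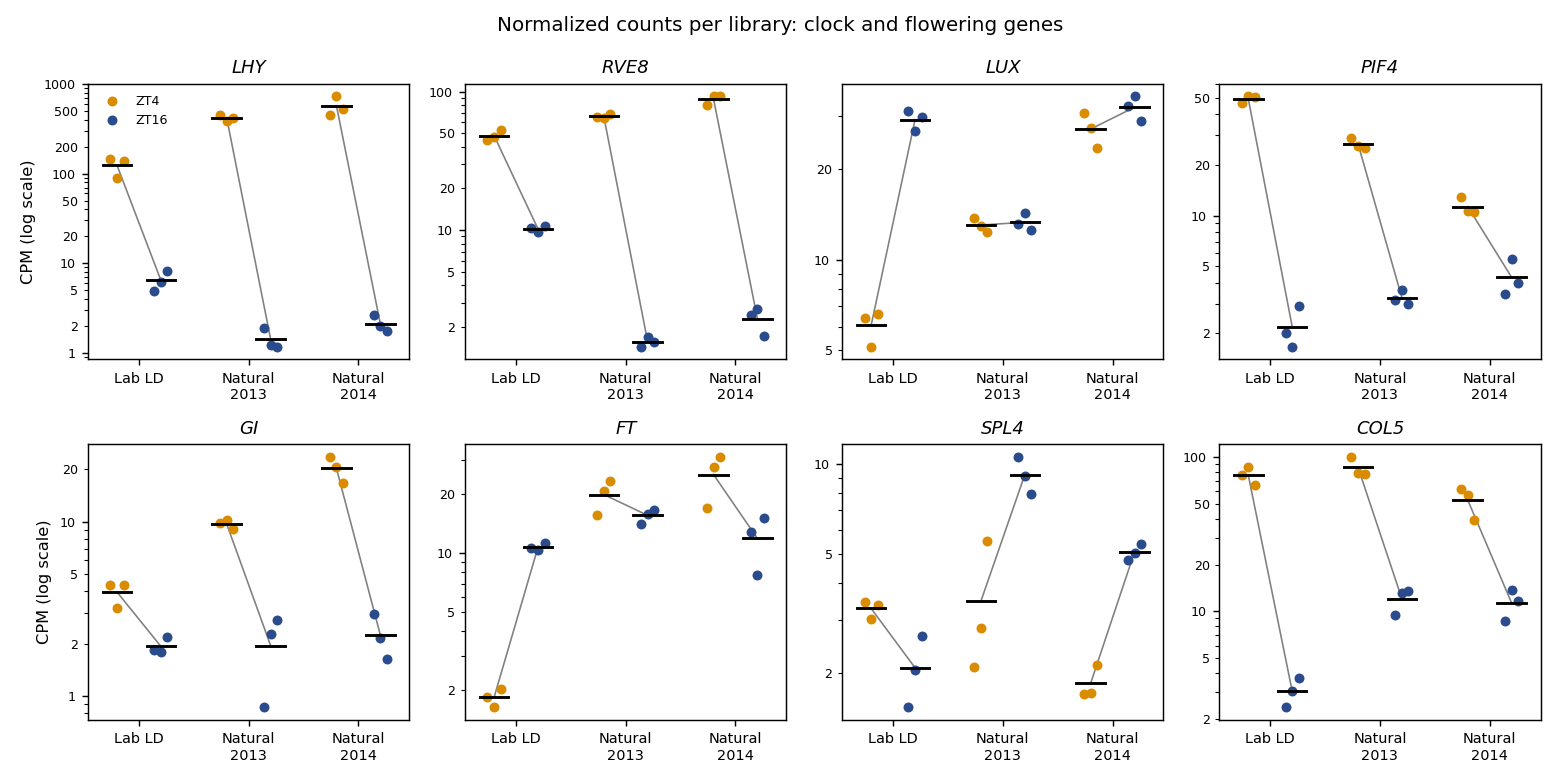
Each panel shows the CPM (log axis) of 1 gene in every library of lab LD, natural 2013 and natural 2014, with ZT4 in orange and ZT16 in blue, a black bar for each group mean and a grey line joining the 2 means. LHY and RVE8 spread further apart outdoors, the 2 times of LUX overlap within each outdoor year, and FT, low at ZT4 in lab LD, is at or above its ZT16 level outdoors.

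Flowering genes changed in both directions. Of 25 tested, 9 rose, 6 fell and 10 did not pass, and 4 rose and 5 fell in both years, with a median of 0.18. The shares over all genes were 13.6% and 13.9%, and 5.11% and 6.14% in both years. With 2013 alone 5 rose and 9 fell, and with 2014 alone 10 rose and 5 fell with a median of -0.09. FT, the mobile signal that triggers flowering, read 1.85, 1.64 and 2.03 CPM at ZT4 and 10.6, 10.3 and 11.2 CPM at ZT16 in the lab libraries. Seedlings grown outdoors had 15.6, 20.8 and 23.4 CPM at ZT4 and 14.2, 16.0 and 16.7 CPM at ZT16 in 2013, then 17.1, 27.6 and 31.1 CPM at ZT4 and 12.8, 7.75 and 15.2 CPM at ZT16 in 2014. Its ZT4 libraries outdoors lay above every lab library, and the ZT4 and ZT16 libraries of 2013 overlapped. The interaction was -3.26 ± 0.30 (adjusted p = 5.51e-09), with -2.89 ± 0.34 in 2013 and -3.63 ± 0.34 in 2014. Its relative TSF fell too, at -3.74 ± 0.76 (adjusted p = 0.000471), from means under 2 CPM in every group.

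CO, the activator of FT, had means of 0.483 ± 0.293 CPM (ZT4) and 2.94 ± 0.471 CPM (ZT16) in lab LD, 0.427 ± 0.273 and 4.33 ± 1.10 CPM in 2013, and 0.941 ± 0.356 and 4.78 ± 1.26 CPM in 2014 (SD, n = 3), and its interaction did not pass (0.34 ± 0.50, adjusted p = 0.668). CDF1, a repressor of CO and FT, fell at -1.14 ± 0.21 (adjusted p = 0.000144). COL1, a CO-like gene next to CO, fell at -2.28 ± 0.22 (adjusted p = 9.46e-09), while COL5 rose. COL5 read 77.2, 86.9 and 65.8 CPM at ZT4 in lab LD and 2.39, 3.05 and 3.69 CPM at ZT16 there. Outdoors the 2013 libraries held 101, 79.6 and 77.8 CPM at ZT4 and 9.54, 13.2 and 13.5 CPM at ZT16, and the 2014 ones 62.3, 57.1 and 38.9 CPM at ZT4 and 8.63, 13.7 and 11.6 CPM at ZT16, so its ZT16 libraries were higher outdoors than in the lab while ZT4 overlapped in 2013. The interaction of COL5 was 2.13 ± 0.25 (adjusted p = 3.82e-07).

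SPL4, a target of the age pathway and of FT signalling, read 3.45, 3.03 and 3.35 CPM in the ZT4 libraries of lab LD and 1.53, 2.03 and 2.66 CPM in the ZT16 ones. The ZT4 values outdoors were 2.08, 2.82 and 5.50 CPM in 2013 and 1.69, 1.71 and 2.12 CPM in 2014, and the ZT16 values were 10.6, 9.12 and 7.91 CPM and 4.76, 5.04 and 5.40 CPM. In lab LD the ZT4 libraries were the higher ones, and within each outdoor year the ZT16 libraries were, with no overlap. Across the years 1 ZT4 library of 2013, at 5.50 CPM, lay above the ZT16 libraries of 2014. The interaction was 2.07 ± 0.31 (adjusted p = 1.15e-05). Its close relative SPL3 had 1.86 ± 0.29 (adjusted p = 2.36e-05), and SOC1, the MADS-box integrator of flowering signals, had 1.26 ± 0.20 (adjusted p = 2.35e-05). The floral repressor SMZ fell at -2.11 ± 0.47 (adjusted p = 0.00118). FLC, the repressor that vernalization silences, had -0.31 ± 0.25 (adjusted p = 0.401), and SVP, another MADS-box repressor, had 0.18 ± 0.15 (adjusted p = 0.397), so neither passed.

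The phytochrome-interacting factors (PIFs) and shade genes gave 7 that rose, 1 that fell and 7 that did not pass among 15 tested. In both years 6 rose and 1 fell, and the median was 0.81. Of all genes 13.6% rose and 13.9% fell, and 5.11% and 6.14% did so in both years. PIF4, a bHLH factor that promotes stem growth in shade and warmth, read 46.2, 51.0 and 50.3 CPM in lab LD at ZT4, against 2.02, 1.67 and 2.90 CPM at ZT16. In natural LD the ZT4 libraries had 28.9, 25.7 and 25.1 CPM in 2013 and 12.8, 10.6 and 10.4 CPM in 2014, and the ZT16 libraries 3.18, 3.60 and 2.98 CPM and 3.42, 5.51 and 3.97 CPM. Its ZT4 libraries fell from lab LD to 2013 and again to 2014 without overlap, and its ZT16 libraries were higher outdoors. The interaction was 2.27 ± 0.20 (adjusted p = 3.45e-09). PIF1, which represses germination and greening in the dark, rose and reversed at 2.01 ± 0.20 (adjusted p = 1.21e-08). PAR1, a bHLH protein that blocks PIF action, rose at 2.64 ± 0.46 (adjusted p = 8.27e-05) from means under 5 CPM. PIF7, a shade-response factor, was the 1 gene that fell, at -1.14 ± 0.21 (adjusted p = 0.000173), and PIF5 did not pass at 0.23 ± 0.22 (adjusted p = 0.485).

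Auxin genes included 7 that rose, 1 that fell and 9 that did not pass, with 4 that rose in both years, against 13.6%, 13.9% and 5.11% of all genes in that order. IAA29, an auxin response repressor that PIFs induce, read 22.99, 28.3 and 29.2 CPM (ZT4) and 2.75, 1.67 and 4.35 CPM (ZT16) in lab LD. For 2013 the libraries gave 20.5, 17.55 and 13.3 CPM (ZT4) and 22.1, 22.2 and 26.1 CPM (ZT16), and for 2014 they gave 2.20, 2.0 and 2.12 CPM (ZT4) and 6.83, 13.3 and 11.3 CPM (ZT16). In lab LD all ZT4 libraries were above all ZT16 libraries, and in both outdoor years all ZT16 libraries were above all ZT4 libraries. The interaction was 4.57 ± 0.38 (adjusted p = 9.78e-10). GH3.6, which conjugates auxin to amino acids, reversed at 1.73 ± 0.16 (adjusted p = 5.57e-09). Among cell wall genes (expansins and XTHs), 5 rose, 3 fell and 9 did not pass, against 13.6% and 13.9% of all genes, but with 2013 alone 1 rose and 5 fell. In both years 1 gene of this list rose, where 5.11% of all genes did, and 2 fell, where 6.14% did. The 1 that rose was the expansin gene EXPA8, at 3.00 ± 0.32 (adjusted p = 7.24e-08). EXPA5 and XTH19 fell. With 1 library left out, their interactions ran from -0.90 to -0.77 and from -2.34 to -1.84. GA3OX2, which makes active gibberellin, was the 1 gibberellin gene that changed in both years, at -2.91 ± 0.33 (adjusted p = 2.01e-07).

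Of 10 cell division genes 6 rose, none fell and 4 did not pass, where 13.6% of all genes rose, and the median was 0.67. In both years 3 rose, where 5.11% of all genes did, and 3 rose with 2014 alone and 4 with thinned libraries. The changes were small. KNOLLE, needed for the cell plate, had 0.73 ± 0.12 (adjusted p = 5.47e-05), the mitotic cyclin CYCB1;2 had 0.88 ± 0.19 (adjusted p = 0.000933), and the mitotic kinase CDKB2;1 had 0.82 ± 0.15 (adjusted p = 0.000129). The 6 genes that rose differed between times outdoors alone.

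**Figure D3:**
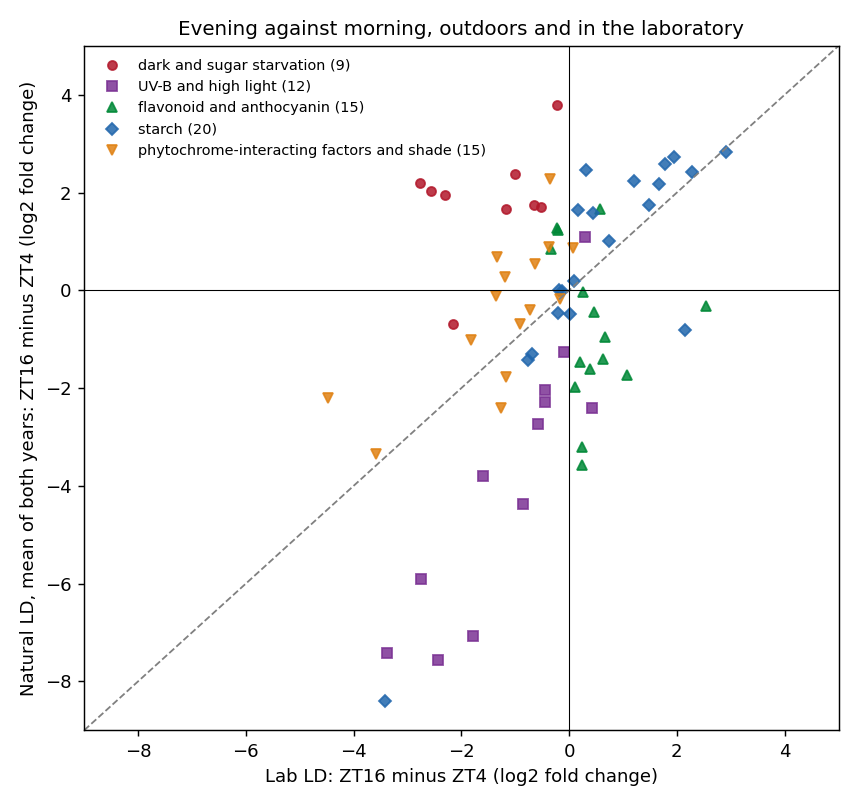
Each point is 1 gene, with its log2 ZT16 minus ZT4 difference in lab LD on the x axis and in natural LD (mean of both years) on the y axis, and the dashed line is equality. The dark and sugar genes lie above the line, most of them left of 0 and above 0, and the UV-B genes lie below it except UVR8. Starch and PIF or shade genes fall on both sides.

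Starch genes changed in both directions, among the genes of starch breakdown too. Of 20 tested, 7 rose, 5 fell and 8 did not pass, with 4 and 3 in both years, beside 13.6% and 13.9% of all genes and 5.11% and 6.14% in both years. With 2013 alone 7 rose and 3 fell. Without the second ZT16 library of lab LD, 3 fell in place of 5. BAM3, the chloroplast beta-amylase that degrades starch at night, read 94.0, 80.3 and 77.6 CPM at ZT4 and 400.2, 357 and 369.5 CPM at ZT16 in the lab libraries. Seedlings grown outdoors had 314, 303 and 259 CPM at ZT4 and 162, 158 and 175 CPM at ZT16 in 2013, then 294, 416 and 357 CPM at ZT4 and 209, 196 and 199.9 CPM at ZT16 in 2014. Levels were higher at ZT16 in lab LD and higher at ZT4 in both outdoor years, with no overlap. The interaction was -2.98 ± 0.13 (adjusted p = 1.79e-14), with -2.98 ± 0.15 in 2013 and -2.98 ± 0.15 in 2014. PHS1, the plastid alpha-glucan phosphorylase, read 43.1, 48.5 and 48.9 CPM at ZT4 in lab LD and 57.1, 60.9 and 55.9 CPM at ZT16 there. Outdoors the 2013 libraries held 10.5, 15.5 and 13.6 CPM at ZT4 and 64.6, 59.8 and 55.5 CPM at ZT16, and the 2014 ones 8.28, 7.14 and 11.1 CPM at ZT4 and 61.4, 61.4 and 52.5 CPM at ZT16. Its ZT16 libraries overlapped across the 3 settings, and its ZT4 libraries were lower outdoors. The interaction was 2.15 ± 0.15 (adjusted p = 2.48e-11). Among other degradation genes AMY3, an alpha-amylase, rose at 1.48 ± 0.17 (adjusted p = 3.11e-07), and SEX1, a glucan water dikinase, at 1.03 ± 0.17 (adjusted p = 5.35e-05).

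GBSS1, the granule-bound synthase that makes amylose and a known target of CCA1 and LHY, read 72.9, 92.7 and 77.8 CPM in the ZT4 libraries of lab LD and 6.91, 8.55 and 7.31 CPM in the ZT16 ones. The ZT4 values outdoors were 174, 185 and 139 CPM in 2013 and 263, 309.7 and 355 CPM in 2014, and the ZT16 values were 0.433, 0.840 and 0.648 CPM and 0.629, 1.03 and 0.306 CPM. It was higher outdoors at ZT4 and lower at ZT16 in every library. The ZT16 values outdoors are few reads per library, and the interaction was -4.99 ± 0.28 (adjusted p = 8.52e-13). The promoter of PHS1, chr3:11252507-11252806 on the + strand of TAIR10.1, is shown because it holds 3 G-boxes within 300 bases, marked by capitals, 5′ to 3′.
PHS1: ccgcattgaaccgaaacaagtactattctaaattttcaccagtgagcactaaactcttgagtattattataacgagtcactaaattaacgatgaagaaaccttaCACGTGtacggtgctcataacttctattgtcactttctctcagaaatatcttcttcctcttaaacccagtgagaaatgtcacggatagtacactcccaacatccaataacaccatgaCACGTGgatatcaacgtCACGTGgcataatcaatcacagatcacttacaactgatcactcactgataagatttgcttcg

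Chlorophyll synthesis genes included 6 that rose, 3 that fell and 4 that did not pass, with 3 and 2 in both years, where all genes gave 13.6% and 13.9%, and 5.11% and 6.14% in both years. The number that rose went down to 3 without the second ZT4 library of lab LD. PORB, the light-dependent protochlorophyllide reductase, had means of 283 ± 20.2 CPM (ZT4) and 576 ± 23.4 CPM (ZT16) in lab LD, 43.4 ± 8.29 and 375 ± 36.9 CPM in 2013, and 30.1 ± 2.84 and 388 ± 8.68 CPM in 2014 (SD, n = 3). Its level outdoors lay below that of the lab at both times, and further below at ZT4, and the interaction was 2.38 ± 0.13 (adjusted p = 8.11e-13). Of 14 light-harvesting and photosystem genes, 4 rose, 1 fell and 9 did not pass, against 13.6% and 13.9% of all genes. With 2013 alone 1 rose and 3 fell, and with 2014 alone 8 rose and 1 fell. All 14 differed between the years in their ZT16 to ZT4 difference, where 17.1% of all genes did, and their median was -0.15 in 2013 and 0.49 in 2014. LHCA3, a subunit of the antenna of photosystem I, rose in both years at 0.75 ± 0.12 (adjusted p = 2.02e-05), and LHCB7, a rare antenna protein, fell at -1.89 ± 0.24 (adjusted p = 1.28e-06).

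**Figure D4:**
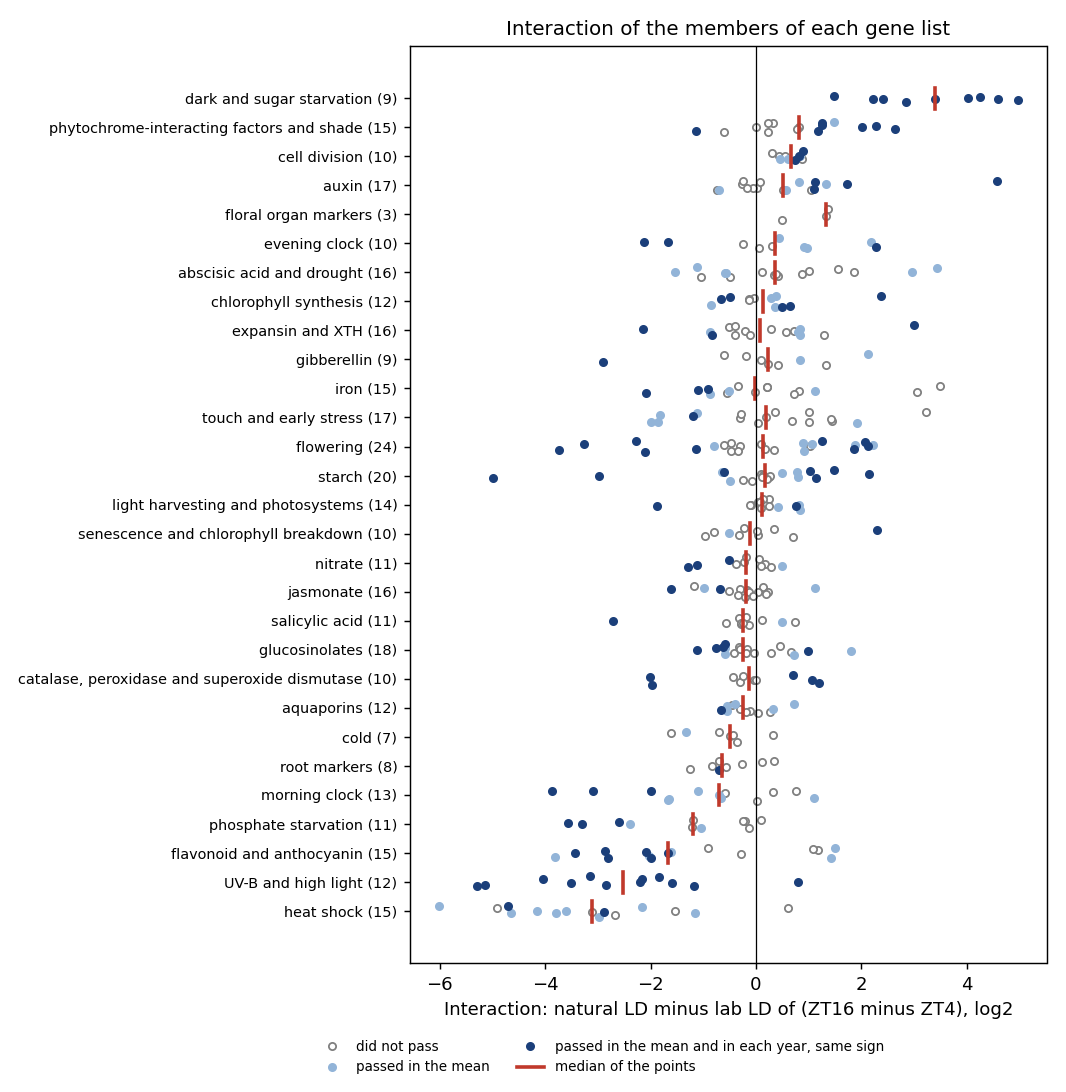
Each point is the interaction (log2) of 1 gene of a list, white where it did not pass, light blue where it passed in the mean of both years and dark blue where it passed in the mean and in each year with 1 sign; red bars are medians of the points. Genes with a group of 0 to 3 reads are left out, and the number of points stands beside each list. The dark and sugar list lies above 0, the UV-B list below 0 apart from 1 gene, and most other lists span 0.

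Of 18 heat shock genes tested, 10 fell, none rose and 8 did not pass, with a median of -3.36, where 13.9% of all genes fell. In both years by themselves 2 fell, where 6.14% of all genes did, and these were HSP70, a chaperone gene, and HSFB2B, a repressor among heat shock factors. The median was -1.04 in 2013 and -5.98 in 2014, and 11 of the 18 differed between years, against 17.1% of all genes. The summed level of the list was 88.2 to 102 CPM at ZT4 in lab LD, 122.0 to 338 CPM in 2013 and 3386 to 27020.0 CPM in 2014, and it was 96.9 to 307 CPM at ZT16 of 2014. The 3 libraries at ZT4 of 2014 thus stood far apart, and all of them lay above the other 15 libraries. The part of this response in other differences of 2014 was not tested. HSP70 (AT3G12580) read 12.7, 17.5 and 24.1 CPM in lab LD at ZT4, against 9.97, 13.4 and 9.37 CPM at ZT16. In natural LD the ZT4 libraries had 172, 69.3 and 39.2 CPM in 2013 and 8320.0, 1566 and 3607 CPM in 2014, and the ZT16 libraries 8.81, 9.60 and 10.5 CPM and 39.2, 16.3 and 15.3 CPM. Its ZT4 libraries were higher outdoors than in the lab in both years, and the interaction was -4.70 ± 0.64 (adjusted p = 2.64e-06). HSFB2B had an interaction of -2.89 ± 0.24 (adjusted p = 5.26e-10). HSP90.1, an inducible chaperone, had -8.01 ± 0.84 (adjusted p = 3.42e-08) in 2014 and -1.29 ± 0.95 (adjusted p = 0.391) in 2013. Small heat shock proteins are a family of close copies, so reads may be split between them, and HSP17.6II did not pass at -4.92 ± 2.07 (adjusted p = 0.08). It passed without the first ZT4, second ZT4 or first ZT16 library of 2014, at -4.17, -5.19 and -5.44 (adjusted p = 0.0387, 0.0116 and 0.0456).

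**Figure D5:**
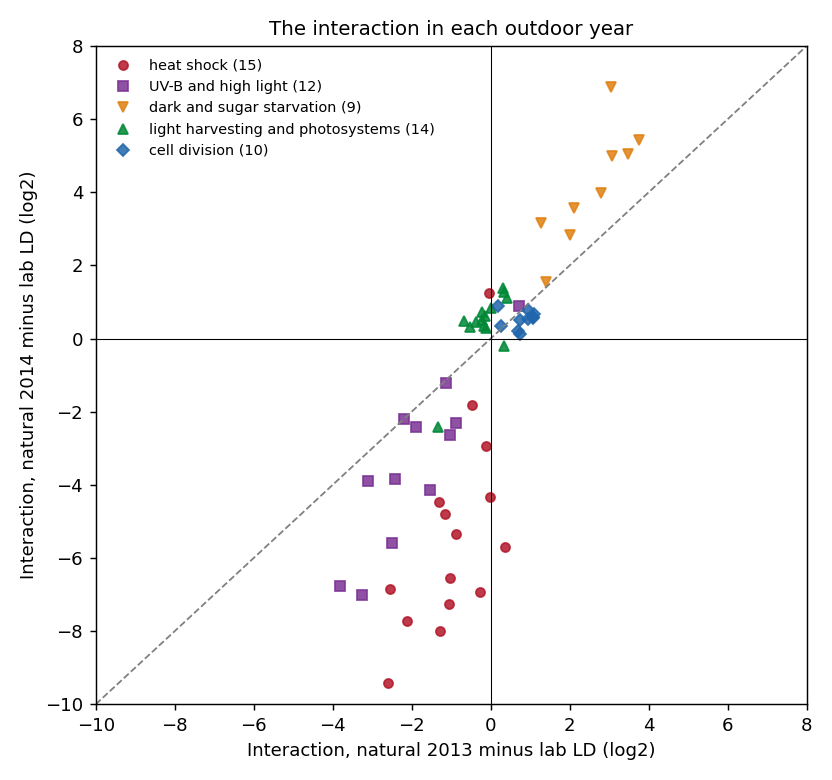
Each point is 1 gene, with its interaction (log2) from 2013 on the x axis and from 2014 on the y axis, both against the same lab libraries. Genes with a group of 0 to 3 reads are left out. Many heat shock genes lie far lower in 2014 than in 2013, and 11 of the 18 tested differed between years. The dark and sugar genes are above 0 on both axes. The median of the light-harvesting genes is higher in 2014, but LHCB7 lies lower in that year.

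Of 10 cold genes 1 fell, KIN2, and 9 did not pass, where 13.9% of all genes fell. KIN2 had -1.34 ± 0.30 (adjusted p = 0.00138), and its reads may be shared with its near copy KIN1. CBF2 is given by its reads: 63 and 11 over the libraries of ZT4 and ZT16 in lab LD, 73 and 0 in 2013, and 6 and 3 in 2014. Of 19 touch and early stress genes, 1 rose, 5 fell and 13 did not pass, with a median of 0.19, against 13.6% and 13.9% of all genes. None rose and 5 fell with 2013 alone, and 4 rose and 2 fell with 2014 alone. The 1 that rose did not pass with DESeq2, RLE scaling, the replicate block, the 18 libraries alone or thinned libraries. The calmodulin-like gene TCH3 had -0.30 ± 0.49 (adjusted p = 0.7), or -1.55 (adjusted p = 0.00136) without the first ZT4 library of lab LD. MYB44, a stress-induced MYB factor, fell at -1.20 ± 0.25 (adjusted p = 0.000706).

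Phosphate starvation genes fell or did not pass, in 5 and 6 cases, with 3 that fell in both years and a median of -1.19. Over all genes 13.9% fell, and 6.14% in both years. PAP17, an acid phosphatase, read 5.85, 11.4 and 9.13 CPM (ZT4) and 15.0, 11.7 and 11.5 CPM (ZT16) in lab LD. For 2013 the libraries gave 29.7, 33.4 and 31.0 CPM (ZT4) and 13.3, 12.7 and 10.4 CPM (ZT16), and for 2014 they gave 126, 94.3 and 80.9 CPM (ZT4) and 5.93, 4.01 and 7.34 CPM (ZT16). At ZT4 the order was lab LD, then 2013, then 2014, with no overlap, and at ZT16 the 2014 libraries were the lowest. The interaction was -3.29 ± 0.27 (adjusted p = 5.95e-10). SPX1, a phosphate-sensing repressor, had -2.59 ± 0.28 (adjusted p = 8.32e-08). Without the third ZT4 library of 2014, 8 genes of this list fell in place of 5. Among nitrate genes 1 rose, 3 fell and 7 did not pass, against 13.6% and 13.9% of all genes. The nitrate transporter NRT1.1 fell in both years at -1.28 ± 0.15 (adjusted p = 1.7e-07) and the nitrite reductase NIR1 at -1.13 ± 0.16 (adjusted p = 4.77e-06). Iron genes gave 2 that rose, 5 that fell and 10 that did not pass, with a median of 0.21, beside the same shares, and the ferritin gene FER1 had -2.08 ± 0.32 (adjusted p = 1.48e-05). The number that rose was 4 with no filter, 5 with DESeq2 and 0 with thinned libraries. It was 0 too without the first ZT4 or second ZT16 library of lab LD or the second ZT16 library of 2013, and 4 without the second ZT16 library of 2014.

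The catalases parted. CAT2, the leaf catalase that clears hydrogen peroxide from photorespiration, read 1343, 1407 and 2140.0 CPM at ZT4 and 959, 1023 and 1008 CPM at ZT16 in the lab libraries. Seedlings grown outdoors had 2379, 2389 and 2271 CPM at ZT4 and 435, 387 and 385 CPM at ZT16 in 2013, then 4310.0, 3857 and 4201 CPM at ZT4 and 613, 582 and 464 CPM at ZT16 in 2014. It was higher outdoors at ZT4 and lower at ZT16 in every library, and the interaction was -2.01 ± 0.15 (adjusted p = 1.87e-10). CAT3, known to peak in the evening, rose at 1.07 ± 0.13 (adjusted p = 9.06e-07), and CAT1 rose at 1.20 ± 0.16 (adjusted p = 2.05e-06). APX1, a cytosolic ascorbate peroxidase, fell and reversed at -1.98 ± 0.19 (adjusted p = 7.82e-09). In all, 3 genes of this list rose, 2 fell and 6 did not pass, and each of those 5 did so in both years. The shares over all genes were 13.6% and 13.9%, and 5.11% and 6.14% in both years.

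The counts of the defence and stress hormone lists stand beside 13.6% of all genes that rose and 13.9% that fell, and 5.11% and 6.14% in both years. Salicylic acid genes gave 2 that rose, 1 that fell and 9 that did not pass; the 1 that fell was PR5, a thaumatin-like defence protein, at -2.70 ± 0.23 (adjusted p = 9.06e-10). No salicylic acid gene rose without the first ZT4 library of lab LD. Jasmonate genes gave 1, 3 and 12, with MYC2, the central bHLH factor of that hormone, at -1.61 ± 0.21 (adjusted p = 1.71e-06), and AOS, an enzyme of its synthesis, at -0.68 ± 0.19 (adjusted p = 0.00743). Abscisic acid and drought genes gave 2, 4 and 10, none of them in both years, with a median of 0.36, and 4 rose without the second ZT16 library of lab LD. With 2013 alone 7 rose and none fell (median 1.05), with 2014 alone none rose and 7 fell (median -0.76), and 10 of the 16 differed between years, against 17.1% of all genes. Glucosinolate genes gave 3, 6 and 9, with MAM1, which sets side chain length, at 0.99 ± 0.20 (adjusted p = 0.000509), and MYB34, a regulator of the indole branch, at -1.11 ± 0.17 (adjusted p = 1.82e-05). Aquaporins gave 2, 4 and 6, and the number that fell was 2 without the first ZT4 library of 2013 and without any of 4 lab libraries, replicates 1 and 2 of ZT4 and replicates 2 and 3 of ZT16. Senescence genes gave 1, 1 and 8; NAP, a NAC factor of leaf senescence, rose at 2.30 ± 0.34 (adjusted p = 9.72e-06). Of the 10 root markers tested 1 fell, SCR, at -0.70 ± 0.17 (adjusted p = 0.00275). With 2013 alone 3 of the 10 fell, beside 1734 of all 18797 genes, and their median was -1.03. With 2014 alone 1 of the 10 fell, beside 2895 of all genes, and their median was 0.25.

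At the negative end, the strongest genes included 2 that fell to a few reads at ZT16 outdoors, for which no fitted fold is given. AT4G27360, annotated as a dynein light chain, had 193 and 32 reads over the libraries of ZT4 and ZT16 in lab LD, 725 and 1 in 2013, and 863 and 4 in 2014. The F-box gene AT4G34550 had 207 and 64 reads in lab LD, 407 and 0 in 2013, and 480 and 4 in 2014. Both had more reads at ZT4 and fewer at ZT16 outdoors than in the lab, from libraries that held fewer reads in all. PEPC1 (AT1G17710), a phosphatase-related gene, had an interaction of -4.59 ± 0.78 (adjusted p = 5.86e-05).

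The ZT16 to ZT4 difference in natural LD was also set against that in LD+FR+TEMP, and 2867 genes (15.3%) differed. Of the genes that passed the interaction test in both years, 1340 (63.4%) also differed here, 1338 of them with the same sign. The others did not pass, so a difference from this indoor setting was not shown for them. This comparison shares the natural LD libraries with the interaction, so the values of some leading genes are given side by side and not as support. They leave out ELIP1, HY5, BBX31, BAM3 and GBSS1. AT3G15450 differed by 4.17 ± 0.35 (adjusted p = 3.9e-09), TPS11 by 3.09 ± 0.28 (adjusted p = 1.43e-08), LHY by -2.83 ± 0.29 (adjusted p = 1.33e-07) and PIF1 by 1.12 ± 0.20 (adjusted p = 0.000226). F3H differed by -0.77 ± 0.17 (adjusted p = 0.0025) and FT by -0.81 ± 0.27 (adjusted p = 0.0407), beside -3.44 and -3.26 against lab LD. SEN1, COL5 and PIF4 did not pass in this comparison, at 1.58 ± 1.19 (adjusted p = 0.432), 0.56 ± 0.23 (adjusted p = 0.106) and 0.22 ± 0.19 (adjusted p = 0.498). AT4G27360 had 661 reads at ZT4 and 20 at ZT16 of LD+FR+TEMP, and AT4G34550 had 426 and 53. Both genes thus had more reads at ZT4 and fewer at ZT16 than in lab LD in this indoor setting too.

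The ZT16 to ZT4 difference itself differed between 2014 and 2013 in 3211 genes (17.1%). Of the 2114 genes that passed in both years, 601 (28.4%) also differed between years, so 1 direction did not mean 1 size. The outdoor libraries are shared by both tests, and this count is a description. BAM3, LHY, CCA1 and RUP2 did not pass the test between years, with differences of 0.00 ± 0.15 (adjusted p = 0.991), 0.14 ± 0.46 (adjusted p = 0.883), -0.11 ± 0.37 (adjusted p = 0.905) and 0.00 ± 0.18 (adjusted p = 0.991).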

How the data were processed

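Polyadenylated RNA of whole seedlings was sequenced from libraries that capture 3′ ends. The tools that the authors ran were, per the submitters' processing notes, edgeR, Bowtie2, Trimmomatic 0.36 and bcl2fastq 2.17.1.14, on TAIR10. The counting step, its strand setting and the handling of reads that match several copies are not given in the sources used here, so near-identical copies and overlapping or antisense genes are uncertain. The deposited files hold raw read counts for 48359 transcript models, which were summed to 27655 loci. No column of a table of the whole series was used (0 columns). Names came from RefSeq (TAIR10.1), in which 27445 loci matched.

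Genes were kept by filterByExpr (minimum count 10, minimum total 15), which left 18797. After TMM scaling, edgeR 4.0.16 (with limma 3.58.1, in R 4.3.3) fitted the 8 group means of all 24 libraries in 1 quasi-likelihood model without a block, so that they share 1 estimate of the spread (common dispersion 0.0143). The F test of each of 16 contrasts was adjusted by the Benjamini-Hochberg method across the 18797 genes, and 0.05 was the threshold. SE is the size of the log2 difference divided by the square root of F. The fit was also run on simulated data with known changes, drawn from the observed means with 1 dispersion for all genes. Since the spread differs between genes and libraries, no conclusion is drawn from that run here. Replicate numbers were checked for pairing, and replicate libraries of a group were compared by chi-square and none was a duplicate.

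A gene passed in both years where the mean interaction and each year's own interaction passed with 1 sign. No fitted difference is printed for a gene with a group of 0 to 3 reads, except the year difference of CBF2, though such genes are in the counts. In all, 29 lists (436 members) drew on textbook knowledge of the plant, 428 matched a locus by name and 400 were tested; RVE6, CDF5, UGT75C1, HSP17.6C, HSP15.7, HSP23.5, COR28 and UGT74C1 were left out. The genes and lists were chosen with earlier results of these data known, and a list has no test of its own. A rule chose 104 genes to name. It took FT, CO, GI, FKF1, CDF1, CCA1, LHY, PRR5, TOC1, PIF4 and PIF5 in any case. Among genes that passed in both years with a group mean of at least 5 CPM, it took the 8 largest differences in each direction. From each list it took up to 2 genes in each direction that passed in both years, by smallest adjusted p. It also took the first of each list that did not pass. Some of these genes are not named in the text, among them SOT16, HEMA1, CHLM, EDS5 and NCED3. Other genes named were chosen after their values were seen. Alternatives were the 18 libraries alone, DESeq2 1.42.0, its size factors (RLE) in edgeR, no filter, a mean of at least 5 CPM, libraries thinned to the smallest total, the replicate number as a block, each year alone and each library left out.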

Additional observations from a re-analysis of the deposited data

Results flagged for a closer look

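The 46 named genes below had a ZT16 to ZT4 difference that itself differed between 2014 and 2013 by the test of that difference, which 17.1% of all genes did. Values are 2014 minus 2013 on the log2 scale, and each year is 1 season.

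Of the dark and sugar list, the ZT16 to ZT4 difference was higher in 2014 for SEN1 (3.84), TPS11 (1.68) and KMD4 (1.46). Of the genes named for a large positive interaction, it was higher for AT1G23390 (3.41), AT1G80440 (3.15), AT4G36850 (2.21), AT5G22920 (2.14), AT4G27450 (1.77) and AT3G15450 (1.53). Among genes of light, flavonoids and heat, the year difference was -3.75 for ELIP1, -2.71 for F3H, -2.60 for HY5, -1.89 for FLS1, -0.78 for HYH, -4.29 for HSP70 and -3.15 for HSFB2B. All of these fell further in 2014.

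Among clock and growth genes the value was 1.92 for RVE1, 1.00 for TOC1, 1.64 for PIF4, 0.79 for PIF5, 1.85 for IAA29, 0.70 for GH3.6, 2.76 for GA20OX1 and 1.99 for EXPA8. PIF4 and IAA29 thus rose further in 2014, while RVE1, PIF5 and GA20OX1 did not pass in the mean of both years. CDKB2;1 had -0.52 and the floral organ gene SEP1 -1.72.

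In the chloroplast and starch lists the value was 0.58 for PORB, 0.57 for CRD1, 0.71 for LHCA2, 0.69 for LHCA3, -1.09 for LHCB7 and 0.72 for AMY3. CRD1 fell in both years, and less so in 2014.

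Among nutrient and redox genes the value was -2.76 for PAP17, -1.88 for SPX1, -1.33 for SQD1, -1.33 for FER1, -0.58 for FER3, 1.87 for NIA1, 0.79 for NRT1.1, 1.13 for CAT3 and -1.41 for APX1. In defence and stress lists it was -1.71 for PR5, -0.67 for LOX2, -0.78 for MYB34 and 1.12 for the aquaporin PIP1;5. CBF2 had 6.52, fitted with a group at 0 reads, so the size is no bound.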

How the results depend on the processing

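Under the alternatives run, no gene named by the rule changed sign where it had passed. Genes that did not pass did change sign, among them CO (-0.14) and TCH3 (0.14) when 1 lab library was left out. Lists turned between years: abscisic acid and drought genes gave 7 higher and none lower with 2013 alone (median 1.05) and none and 7 with 2014 alone (-0.76). With 2013 alone, 5 flowering genes were higher and 9 lower, 1 and 5 of the cell wall list and 1 and 3 of the light-harvesting list, and with 2014 alone 4 touch genes were higher and 2 lower. Across the 18 fits that each left out 1 library, the count of genes with an interaction ran from 4385 to 5089, that of genes passing in both years from 1789 to 2181 and that of reversed genes from 369 to 534, against 5160, 2114 and 519. The 18 libraries alone, RLE (which moved the median by -0.02), no filter, DESeq2 and thinned libraries kept the counts over all genes, and those of their classes, within 1.5 times. List counts moved further: 5 morning clock genes were lower with thinned libraries against 8, and no flavonoid gene was higher with DESeq2 against 2. Iron genes that were higher numbered 4 with no filter, 5 with DESeq2 and none with thinned libraries, against 2, and the 1 touch gene that rose did not with the 18 libraries, RLE, the block, DESeq2 or thinned libraries. With 2013 alone, 3272 genes passed, 1538 higher and 1734 lower, of which 296 were reversed, 82 smaller outdoors and 1793 different between times outdoors alone, with 1216 differing between settings at ZT4 alone and 681 at both times. With 2014 alone, 103 were smaller outdoors. With a mean of at least 5 CPM, 128 differed between times in neither setting and 119 between settings at neither time. The cause was not tested. With the replicate block, 5010 genes passed and 2043 did so in both years. Deviations of same-numbered libraries correlated between -0.09 and 0.16 (45 pairs), and those of differently numbered ones between -0.20 and 0.18 (90 pairs). These pairs were pooled over all 6 groups, so a pairing of ZT4 with ZT16 within 1 setting was not tested by itself. Among genes named by the rule, TOC1 no longer passed with 2013 alone (0.42, adjusted p = 0.251). CYCA1;1, CBF2 and MYB28 passed with 2013 alone, and LOX2, LHCA2, PIP1;5, GA20OX1, SQD1, TT7, HSP17.6II and RVE1 with 2014 alone. HSP17.6II also passed with the block (-4.82) and with DESeq2 (-4.99), and GA20OX1, TT7, TCH3, CYCA1;1 and MYB28 without 1 or another library. Outdoor libraries held fewer reads, which limits genes that fell to a few reads there.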
